A study of Homo sapiens with 8 samples.

Results

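PANC1 cells carrying a guide RNA against BAP1 and exposed to 10 Gy of ionising radiation (sgBAP1 + IR) were compared with untreated PANC1 cells that the labels call wild type (control). All 49293 probe sets of the 49395 on the deposited table that were not Affymetrix controls entered the comparison, on 4 of the 8 arrays of the series. PANC1 is a human pancreatic cancer cell line that, according to the study, has already lost one copy of BAP1, so wild type means that the gene was not targeted. The guide, directed at exon 2, was delivered with Cas9 on a plasmid and followed by puromycin selection. RNA was collected 3 days after irradiation and hybridised to GeneChip PrimeView 3′ IVT arrays. The other 4 arrays were used beside the comparison, 2 from cells with the guide but no irradiation (sgBAP1) and 2 from irradiated wild-type cells (IR). The labels do not say whether control and IR cells received a non-targeting guide, as the study describes for its controls, nor whether paired arrays derive from different cultures. What transfection, selection and off-target cutting did cannot be told apart from losing BAP1, and p-values measure only the spread between these samples.

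BAP1 is a nuclear deubiquitinase that takes ubiquitin off histone H2A, a mark placed by Polycomb repressive complex 1, and it is also recruited to DNA double-strand breaks. Radiation breaks DNA, activates the ATM and ATR kinases and p53, and slows passage through the cell cycle, and damaged DNA that reaches the cytosol can set off interferon and NF-kB programmes. In epithelial cancers irradiation is also known to be followed by secretion of chemokines and of extracellular matrix.

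Arrays of a group were close to each other, with correlations over all probe sets of 0.998 to 0.9985. Control arrays correlated with sgBAP1 + IR arrays at 0.9881 to 0.9892, below the 0.9903 to 0.9952 found between any other groups. Levels are log2 expression values, for which array medians were 6.116 to 6.152 and lower quartiles 4.299 to 4.39. Differences are log2 changes ± the standard error of limma, with n = 2 arrays per group, and a gene is represented by its single-symbol probe set with the highest mean, which gave 18132 genes. The keratins KRT8 (12.73 to 13.33 over the 8 arrays), KRT18 (13.47 to 13.85) and KRT19 (10.64 to 11.93), the ductal transcription factor SOX9 (11.41 to 11.65) and vimentin, VIM (14.04 to 14.24), were all high. Of 15 markers of other cell types, 5 lay below the lower quartile on every array, namely the leukocyte gene PTPRC (3.31 to 3.6), the fibroblast genes LUM and PDGFRA, the islet hormone gene GCG (3.24 to 3.47) and CHGA. CD14 and DCN lay on both sides of it. The other 8 lay above it on every array: the macrophage marker CD68 (7.5 to 9.19), the T cell gene CD3E (5.04 to 5.35), the endothelial genes PECAM1 (5.64 to 6.08), VWF (5.62 to 5.93) and CDH5 (5.29 to 5.39), and the acinar genes PRSS1 (6.78 to 7.14), CPA1 (5.79 to 6.1) and CEL (5.44 to 5.87). Without detection calls, such levels do not show whether a transcript was present. BAP1 transcripts were not analysed here, so the guide's label was not checked against its target. The study itself reports sequencing of the targeted locus and a western blot for BAP1 in PANC1 cells given the guide.

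Combined targeting and irradiation raised 657 genes (3.62% of those tested) and lowered 796 (4.39%), counting a gene as called at an adjusted p under 0.05 and a fold change over 1.5. At the level of probe sets, 1484 were higher and 2062 lower, so that 41.85% of the calls were rises. The rises were larger: 250 genes rose and 133 fell by more than 1 log2, and 53 rose and 5 fell by more than 2. The median change over all genes was 0.035, and 56.11% of genes lay above 0. The methods' t-test with 2 arrays against 2, at the unadjusted threshold of the study, called 1971 probe sets in place of 3546, and 150 after Benjamini-Hochberg adjustment.

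**Figure D1:**
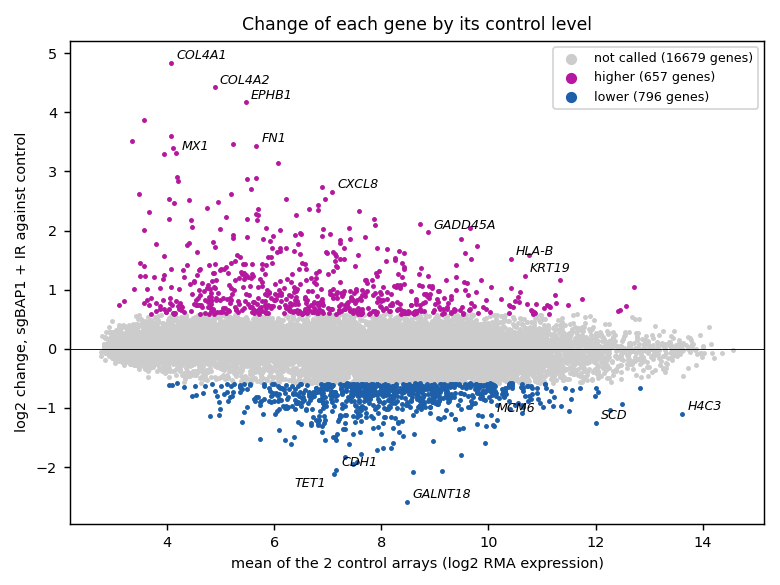
Log2 change of each of the 18132 genes between sgBAP1 + IR and control (vertical axis) against its mean level on the 2 control arrays (horizontal axis, log2 RMA expression), with the 657 higher genes in magenta and the 796 lower genes in blue. The largest rises, such as COL4A1 at 4.84, started from low control levels, whereas falls of abundant genes such as SCD and H4C3 were close to 1 log2.

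The 2 largest rises were in chains of type IV collagen. COL4A1, part of the collagen network of basement membranes, stood at 3.93 and 4.20 on the control arrays and at 8.88 and 8.92 on the sgBAP1 + IR arrays, a change of 4.84 ± 0.10 or 28.6-fold (adjusted p = 2.09e-06). Its partner chain COL4A2 stood at 5.07 and 4.69 in control and at 9.33 and 9.28 in sgBAP1 + IR (4.42 ± 0.23). For both chains every sgBAP1 + IR array lay far above every control array, as their choice among the largest called rises nearly ensures. The arrays of IR alone were almost as high, at 8.38 and 8.30 for COL4A1. The integrin subunit ITGB8, part of a receptor that activates latent TGF-beta, rose from 3.60 and 3.52 to 7.45 and 7.41 (3.87 ± 0.08). Fibronectin, FN1, a matrix glycoprotein bound by integrins, rose from 5.93 and 5.40 to 9.20 and 8.99 (3.43 ± 0.17). The integrin ligand EDIL3 rose by 2.02 ± 0.15, although none of its 4 other probe sets was called the same way and 1 had the opposite sign. Since control levels of COL4A1 and ITGB8 lay below the lower quartile of the arrays, their folds rest on dim baselines.

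Of 29 measured genes of basement membranes and integrins, 7 rose, 3 fell and 19 were not called, against 3.62% and 4.39% of all genes. The risers also included the laminin chain LAMB1 (1.61 ± 0.08) and the collagen-binding integrin ITGA2 (0.65 ± 0.05), both chosen after their values were seen. The type IV collagen chain COL4A5 (-1 ± 0.09) and nidogen, NID1 (-0.94 ± 0.09), which links laminin to collagen IV, fell. One of the 2 other probe sets of NID1 had the opposite sign. The interstitial matrix and remodelling list had 11 rises and 2 falls among 37 genes, with a median change of 0.32. Fibrillin, FBN1, the core of elastic microfibrils, rose from 5.49 and 5.63 to 8.19 and 8.32 (2.69 ± 0.09). The collagen crosslinking oxidase LOX (1.85 ± 0.08) and the transglutaminase TGM2 (1.79 ± 0.08) rose as well. Of the 5 fibrillar collagen genes in the list 2 fell and 3 were not called, namely COL5A1 (0.58), COL1A2 (-0.05) and COL3A1 (-0.04). COL1A1 fell from 8.29 and 8.23 to 7.04 and 7.14 (-1.17 ± 0.06), and COL5A2 fell by 1.08 ± 0.06, with 2 of its 5 other probe sets of the opposite sign.

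**Figure D2:**
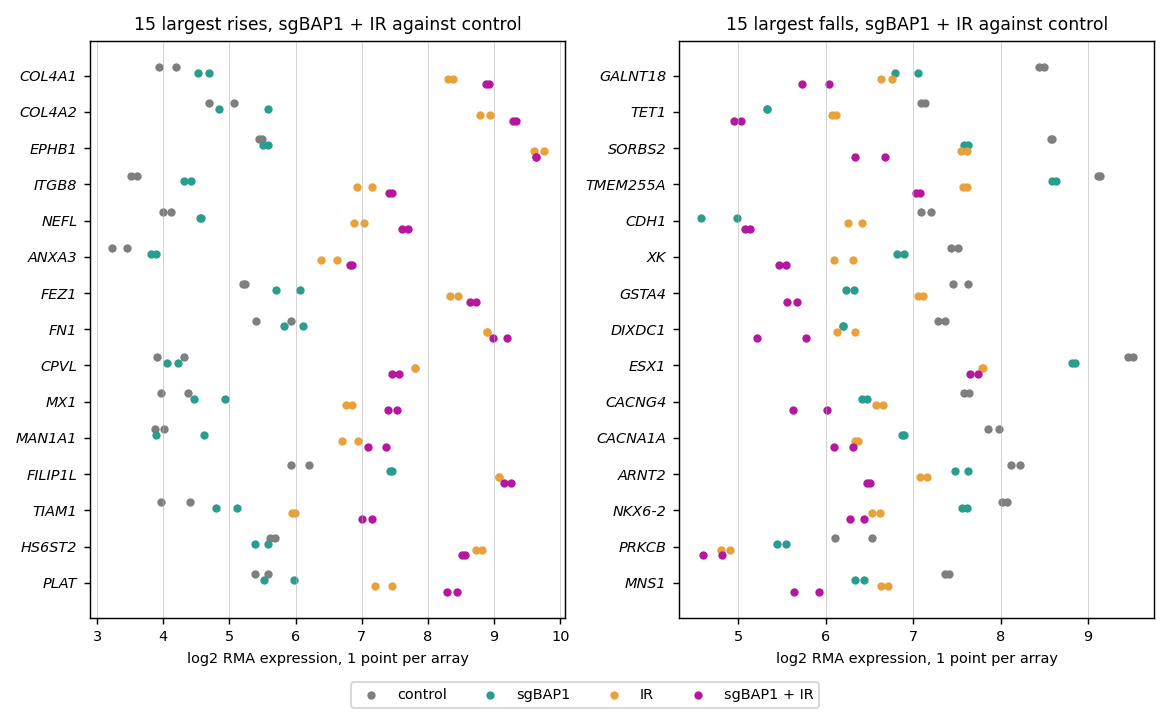
Log2 RMA expression on each of the 8 arrays (1 point per array, coloured by group) for the 15 genes that rose most (left) and the 15 that fell most (right) between control and sgBAP1 + IR. COL4A1 moved from 3.93 and 4.2 to 8.88 and 8.92 and GALNT18 from 8.5 and 8.44 to 5.73 and 6.04. Control and sgBAP1 + IR points do not overlap in any row, which the calls themselves nearly ensure.

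The other large rises belonged to several kinds of protein. EPHB1, a receptor tyrosine kinase for ephrins, went from 5.44 and 5.49 to 9.63 and 9.64 (4.17 ± 0.07, or 18-fold, adjusted p = 8.31e-07). NEFL, the light chain of neurofilaments, rose by 3.60 ± 0.07, and FEZ1, an adaptor of kinesin transport in axons, by 3.46 ± 0.12. Among membrane and secretory pathway genes, the calcium-dependent membrane protein ANXA3 rose by 3.51 ± 0.10, the carboxypeptidase CPVL by 3.40 ± 0.13 and the Golgi mannosidase MAN1A1 by 3.29 ± 0.22. TIAM1, an exchange factor that activates the GTPase RAC1, stood at 3.97 and 4.4 in control and 7.01 and 7.16 in sgBAP1 + IR (2.90 ± 0.15). FILIP1L (3.14 ± 0.09), the heparan sulfate sulfotransferase HS6ST2 (2.89 ± 0.08) and the plasminogen activator PLAT (2.88 ± 0.16) completed the 15 largest rises, together with MX1 described below. In all 15 both arrays of sgBAP1 + IR were above both control arrays, which the calls themselves nearly ensure. Control means of ANXA3 (3.33), MAN1A1 (3.94), NEFL (4.06) and CPVL (4.11) lay below the lower quartile of the arrays, so their folds also rest on dim baselines.

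No list had more called members than the interferon-stimulated genes. Of 37 measured, 23 rose, none fell and 14 were not called, with 35 above 0 and a median change of 0.80, against 3.62% of all genes higher and a median of 0.035. MX1, a dynamin-like GTPase that blocks viral replication, stood at 4.37 and 3.96 on the control arrays and at 7.40 and 7.54 on the sgBAP1 + IR arrays (3.31 ± 0.18, adjusted p = 3.51e-05). The control mean of MX1 (4.16) lay below the lower quartile of the arrays, so its fold rests on a dim baseline. The cytosolic RNA sensor IFIH1 rose from 5.24 and 5.12 to 7.77 and 7.83 (2.62 ± 0.11), although its other probe set was not called the same way. IFIT2, which binds foreign RNA, rose from 7.64 and 7.51 to 9.88 and 9.91 (2.32 ± 0.07), and the exonuclease ISG20 from 5.70 and 5.68 to 8.03 and 7.87 (2.26 ± 0.09). The groups were apart for all 4 genes, which their choice among called genes nearly ensures. Between 21 and 23 members rose under every alternative run for the lists, and none fell.

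Promoters of these genes often held the paired motif to which interferon regulatory factors and the interferon-activated STAT complex bind, taken here as GAAA, 2 bases of any kind and GAAA on either strand. In RefSeq windows of 300 bases, from 250 before to 50 after the annotated start (GRCh38.p14), 18 of the 29 members with a window held it (62.1%), against 3.57% of the 35116 windows of the table, and 14 of the 20 called members did. The windows of the 3 called members with a match and the largest changes are shown because they carry the sequence that the list shares. They are MX1 (chr21:41420308-41420607, plus strand), IFIH1 (chr2:162318635-162318934, minus strand) and ISG20 (chr15:88638766-88639065, plus strand), each written 5′ to 3′ in the direction of transcription with matches in capitals.
MX1: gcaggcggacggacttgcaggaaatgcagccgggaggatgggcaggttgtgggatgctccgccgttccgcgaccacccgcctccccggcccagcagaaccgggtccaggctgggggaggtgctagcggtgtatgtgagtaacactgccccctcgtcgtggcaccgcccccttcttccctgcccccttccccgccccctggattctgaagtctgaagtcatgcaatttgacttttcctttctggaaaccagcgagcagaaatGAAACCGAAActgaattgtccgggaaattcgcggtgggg
IFIH1: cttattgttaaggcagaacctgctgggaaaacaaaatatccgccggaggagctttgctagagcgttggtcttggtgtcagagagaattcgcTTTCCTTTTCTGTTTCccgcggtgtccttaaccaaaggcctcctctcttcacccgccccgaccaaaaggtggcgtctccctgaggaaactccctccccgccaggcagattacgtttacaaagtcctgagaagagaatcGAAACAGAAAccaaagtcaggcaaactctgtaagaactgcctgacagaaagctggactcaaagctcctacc
ISG20: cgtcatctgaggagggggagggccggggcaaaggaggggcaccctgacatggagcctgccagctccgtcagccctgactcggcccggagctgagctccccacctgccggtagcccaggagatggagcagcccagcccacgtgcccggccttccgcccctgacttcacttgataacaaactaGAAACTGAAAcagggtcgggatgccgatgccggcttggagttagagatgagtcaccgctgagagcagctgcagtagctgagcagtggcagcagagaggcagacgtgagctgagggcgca
The window of IFIH1 held 3 matches, 2 of them overlapping and on the opposite strand, and those of MX1 and ISG20 held 1 each. A match describes the letters only and says nothing of which factor was bound.

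Genes of antigen presentation rose in the same cells. Of 21 measured genes of MHC class I presentation and its ligands, 10 rose and none fell, with a median of 0.54. The share that rose was 47.6%, against 3.62% of all genes. HLA-B, a class I heavy chain, stood at 10.41 on both control arrays and at 11.92 and 11.95 on the sgBAP1 + IR arrays (1.52 ± 0.06), and its groups were separated by more than 1 log2. The class I light chain B2M, also on the housekeeping list, rose from 12.59 and 12.56 to 13.30 on both arrays (0.73 ± 0.05). The immunoproteasome subunit PSMB9 (0.94 ± 0.10) and the trimming peptidase ERAP2 (0.96 ± 0.05) rose as well. ULBP2, a stress ligand seen by the natural killer cell receptor NKG2D, rose by 1.56 ± 0.08, although neither of its 2 other probe sets was called the same way and 1 had the opposite sign. When the probe sets of each gene were averaged, 6 members rose. HLA genes are near-identical to one another, so signal may be shared among their probe sets.

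Secreted inflammatory genes rose too. Of 35 measured genes of the NF-kB and secretory list, 15 rose, 1 fell and 19 were not called, with a median of 0.48. The shares were 42.9% higher and 2.86% lower, against 3.62% and 4.39% of all genes. CXCL8, the neutrophil chemokine interleukin 8, stood at 7.12 and 7.03 in control and at 9.75 and 9.70 in sgBAP1 + IR (2.65 ± 0.06, or 6.28-fold, adjusted p = 2.09e-06). The chemokine CCL20 went from 4.60 and 5.28 to 7.43 and 7.42 (2.48 ± 0.19), with the control arrays further apart than those of the treated cells. CCL5, which draws T cells, rose from 5.73 and 5.58 to 7.84 and 8.04 (2.28 ± 0.11). LY96, the co-receptor of TLR4 for lipopolysaccharide, rose from 4.43 and 4.48 to 6.49 and 6.55 (2.06 ± 0.05). The cytokine IL11 went from 6.81 and 6.76 to 8.02 and 8.12 (1.28 ± 0.07). The single fall, in the chemokine CXCL6 (-0.59 ± 0.16), lay below the lower quartile of the arrays and was lost when any 1 of the 4 arrays was left out (adjusted p = 0.054 to 0.124).

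The AP-1 motif, searched as TGANTCA on both strands with its palindromic matches counted once, occurred in 4 of 25 promoter windows of this list (16%), against 7.71% of all windows, and in 2 of the 11 windows of called members. Those were CXCL8 (chr4:73740319-73740618, plus strand) and IL11 (chr19:55370414-55370713, minus strand), shown because they are the called members with a match, which is in capitals.
CXCL8: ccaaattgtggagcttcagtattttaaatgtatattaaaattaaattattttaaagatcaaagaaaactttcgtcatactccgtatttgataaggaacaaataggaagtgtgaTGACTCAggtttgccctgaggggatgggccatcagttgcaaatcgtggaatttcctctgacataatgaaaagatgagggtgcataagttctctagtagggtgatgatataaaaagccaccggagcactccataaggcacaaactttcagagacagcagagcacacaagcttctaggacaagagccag
IL11: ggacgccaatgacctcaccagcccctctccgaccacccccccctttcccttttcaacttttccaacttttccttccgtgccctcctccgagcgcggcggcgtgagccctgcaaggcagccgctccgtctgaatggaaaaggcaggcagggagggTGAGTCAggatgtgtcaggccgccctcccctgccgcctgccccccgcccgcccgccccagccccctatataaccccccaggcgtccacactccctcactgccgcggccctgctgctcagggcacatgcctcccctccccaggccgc
Each window held 1 match, and most called members of the list held none in these 300 bases.

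Of 34 measured EGF receptor ligands and MAPK output genes, 7 rose, none fell and 27 were not called, with a median of 0.24. The share that rose was 20.6%, against 3.62% of all genes. The receptors EGFR (-0.34), ERBB2 (-0.19) and ERBB3 (-0.10) were among those not called. HBEGF, a membrane-anchored EGF receptor ligand, stood at 8.12 and 8.05 in control and at 9.60 and 9.54 in sgBAP1 + IR (1.49 ± 0.06). The MAPK phosphatases DUSP1 (1.10 ± 0.07) and DUSP5 (0.98 ± 0.05) and the immediate-early factor EGR1 (1 ± 0.11) rose by about 2-fold. Of 30 genes of the unfolded protein and ATF4 responses 3 rose (10%) and 1 fell (3.33%, below the 4.39% of all genes lower). STC2, a secreted glycoprotein induced by stress, went from 7.38 and 7.2 to 8.80 and 8.82 (1.52 ± 0.07), and DDIT3, the transcription factor CHOP, rose by 1.20 ± 0.08. The serine synthesis enzyme PSAT1, an ATF4 target, fell by 0.85 ± 0.07.

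Of 28 measured p53 targets, 6 rose, 1 fell and 21 were not called, with a median of 0.08. The shares were 21.4% higher and 3.57% lower, against 3.62% and 4.39% of all genes. PANC1 is known to carry mutant p53, and the list's name does not say which factor acted on its members. GADD45A, a stress-inducible growth arrest gene, stood at 8.90 and 8.85 in control and at 10.83 and 10.85 in sgBAP1 + IR (1.97 ± 0.05). The cyclin-dependent kinase inhibitor CDKN1A went from 9.59 and 9.60 to 10.73 and 10.70 (1.12 ± 0.06). DDB2, which recognises ultraviolet damage in DNA, fell by 0.79 ± 0.06. Of 31 apoptosis genes 6 rose (19.35%, against 3.62% of all genes) and none fell. Among them were the death receptors FAS (1.27 ± 0.13) and TNFRSF10B (0.85 ± 0.06), both also counted as p53 targets, and the pro-survival BCL2A1 (0.68 ± 0.06), whose other probe set had the opposite sign. PMAIP1, the pro-apoptotic NOXA, is also counted in both lists. It rose by 0.64 ± 0.07, and was not called without control replicate 2 (0.56).

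The falls were smaller and of mixed function. GALNT18, a member of the family that starts mucin-type O-glycosylation, stood at 8.50 and 8.44 in control and at 5.73 and 6.04 in sgBAP1 + IR (-2.59 ± 0.12, 6-fold lower, adjusted p = 2.4e-05). TET1, the dioxygenase that oxidises methylcytosine in DNA, went from 7.13 and 7.09 to 5.03 and 4.95 (-2.12 ± 0.06). Both arrays of the treated cells were more than 2 log2 below the control arrays in each. SORBS2, an actin-linked adaptor (-2.08 ± 0.11), TMEM255A (-2.07 ± 0.05) and the Kell blood group partner XK (-1.96 ± 0.08) fell by about 4-fold, with 6 of the 10 other SORBS2 probe sets called the same way and 1 of opposite sign. GSTA4, a glutathione transferase for lipid peroxidation products, fell from 7.63 and 7.45 to 5.56 and 5.67 (-1.92 ± 0.08), and all 3 of its other probe sets were called lower. Calcium channel subunits were among the falls, with CACNG4 at -1.79 ± 0.12 and CACNA1A at -1.72 ± 0.08. So were the homeobox genes ESX1 (-1.79 ± 0.06) and NKX6-2 (-1.68 ± 0.07), the bHLH-PAS factor ARNT2 (-1.69 ± 0.07), the Wnt pathway gene DIXDC1 (-1.84 ± 0.17), the protein kinase C gene PRKCB (-1.61 ± 0.14) and MNS1 (-1.61 ± 0.10). Other probe sets of ARNT2 and PRKCB included 1 each of the opposite sign.

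DNA replication, mitosis and repair genes lay lower as groups, with few members past the fold threshold. Of 43 measured replication and S phase genes 8 fell, none rose and 3 lay above 0, with a median of -0.32, against 4.39% of all genes lower. MCM6, a subunit of the replicative helicase, stood at 10.09 and 10.00 in control and at 8.93 and 8.91 in sgBAP1 + IR (-1.13 ± 0.06), and MCM2 fell by 0.80 ± 0.06. The primase PRIM1 (-0.80 ± 0.05) and the helicase cofactor GINS2 (-0.82 ± 0.07) fell by similar amounts. After a further quantile normalisation, or without sgBAP1 + IR replicate 1, 5 of the 43 were called. Of 40 mitosis and G2/M genes 7 fell, none rose and 4 lay above 0, with a median of -0.30. The mitotic kinase PBK went from 9.89 and 9.97 to 9.11 and 9.03 (-0.86 ± 0.08), the kinetochore protein CENPF from 10.26 and 10.14 to 9.38 and 9.35 (-0.83 ± 0.06) and cyclin A2, CCNA2, from 10.08 and 10.01 to 9.35 and 9.27 (-0.74 ± 0.06). In these bulk samples fewer cycling cells and less RNA per cell cannot be told apart.

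Mitotic promoters are known for the cell cycle homology region, TTTGAA, through which the DREAM complex and B-MYB act. On either strand it was found in 22 of 33 windows of the mitosis list (66.7%), against 15.2% of all windows, and in 3 of the 6 windows of called members. All 3 are shown, with matches in capitals: CENPF (chr1:214602945-214603244, plus strand), the kinetochore gene SPC25 (chr2:168890381-168890680, minus strand) and the anaphase activator CDC20 (chr1:43358731-43359030, plus strand).
CENPF: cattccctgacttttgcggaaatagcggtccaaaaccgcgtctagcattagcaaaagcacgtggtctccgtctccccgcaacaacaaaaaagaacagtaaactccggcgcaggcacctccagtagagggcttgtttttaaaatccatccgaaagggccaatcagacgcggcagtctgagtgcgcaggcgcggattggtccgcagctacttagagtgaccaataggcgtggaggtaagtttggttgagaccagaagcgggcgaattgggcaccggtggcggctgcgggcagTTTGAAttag
SPC25: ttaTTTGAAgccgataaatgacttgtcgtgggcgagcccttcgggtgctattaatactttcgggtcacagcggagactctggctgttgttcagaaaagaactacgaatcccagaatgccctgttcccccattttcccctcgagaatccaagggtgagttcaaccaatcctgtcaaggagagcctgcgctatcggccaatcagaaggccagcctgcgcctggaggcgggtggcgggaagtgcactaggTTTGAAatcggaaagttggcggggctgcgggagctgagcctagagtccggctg
CDC20: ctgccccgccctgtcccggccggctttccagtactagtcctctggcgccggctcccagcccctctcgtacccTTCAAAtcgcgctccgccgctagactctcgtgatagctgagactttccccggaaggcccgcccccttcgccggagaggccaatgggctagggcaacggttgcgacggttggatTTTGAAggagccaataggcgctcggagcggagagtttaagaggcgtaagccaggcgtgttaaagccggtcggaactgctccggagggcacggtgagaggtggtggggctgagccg
SPC25 fell from 9.27 and 9.16 to 8.46 and 8.40 (-0.78 ± 0.06), and CDC20 from 11.74 and 11.68 to 11.06 and 11.03 (-0.67 ± 0.05). The windows of SPC25 and CDC20 held 2 matches each, 1 of those of CDC20 on the opposite strand, and that of CENPF held 1.

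Of 32 measured genes of homologous recombination and crosslink repair 4 fell and none rose, with a median of -0.27. The share that fell was 12.5%, and it was 11.1% of end joining and 13.6% of checkpoint genes, against 4.39% of all genes. FAAP100 stood at 9.88 and 9.78 in control and at 9.04 and 8.95 in sgBAP1 + IR (-0.84 ± 0.07), and FANCC fell by 0.74 ± 0.08. Both belong to the Fanconi anaemia core complex, which acts on crosslinked DNA. The recombinase partner RAD54L (-0.69 ± 0.07) and RMI2 (-0.68 ± 0.05), a subunit of the BLM dissolvasome, also fell. Of 18 end joining genes 2 fell, PARP1 from 9.91 and 9.84 to 9.07 on both arrays (-0.81 ± 0.06), and XRCC1 (-0.61 ± 0.07). XRCC1 was not called without control replicate 1 or sgBAP1 + IR replicate 2 (-0.57 and -0.51), or after a further quantile normalisation (-0.57). The other 16 end joining genes were not called, among them LIG4 (0.29), XRCC4 (-0.12), XRCC5 (-0.26), XRCC6 (-0.25) and PRKDC (-0.001). Of 22 checkpoint genes 3 fell: the fork protection factor TIMELESS (-0.70 ± 0.05), the ATR activator ETAA1 (-0.69 ± 0.08) and the phosphatase CDC25A (-0.67 ± 0.12), 1 of whose 2 other probe sets had the opposite sign.

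Lipid synthesis showed the lowest median of all 32 lists. Of 24 measured cholesterol and fatty acid synthesis genes 7 fell (29.2%, against 4.39% of all genes), none rose and 1 lay above 0, with a median of -0.42. SCD, the desaturase that makes oleate, stood at 12.03 and 11.98 in control and at 10.76 and 10.75 in sgBAP1 + IR (-1.25 ± 0.05, adjusted p = 1.63e-05). The farnesyl diphosphate synthase FDPS (-0.85 ± 0.05), INSIG1, which holds back sterol-regulated transcription (-0.84 ± 0.05) and the elongase ELOVL6 (-0.81 ± 0.09) also fell. Of 27 glycolysis and hypoxia genes 3 fell (11.1%, against 4.39% of all genes). They were led by PDK1, a kinase that shuts off pyruvate dehydrogenase (-0.97 ± 0.07), and PFKFB4, which sets fructose 2,6-bisphosphate (-0.88 ± 0.07). Of 30 AMPK and mTOR genes 1 rose (3.33%, near the 3.62% of all genes), the RAG GTPase RRAGD (0.85 ± 0.06), and 2 fell. DDIT4, an inhibitor of mTORC1, went from 10.63 and 10.61 to 9.54 and 9.55 (-1.08 ± 0.05). Of 29 NRF2 and glutathione genes 2 fell, among them MGST1 (-0.78 ± 0.06). The shares that fell, 6.67% of the AMPK and mTOR list and 6.90% of the NRF2 list, were near the 4.39% of all genes lower. The study picked out metabolism, redox balance, EMT and the DNA damage response from these same samples, so the counts of those lists are not independent evidence of their direction.

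Calls among the epithelial genes, 6.67% higher and 3.33% lower, were near the shares of all genes, 3.62% and 4.39%. E-cadherin, CDH1, the adhesion protein of epithelial junctions, fell from 7.2 and 7.09 to 5.13 and 5.08 (-2.05 ± 0.13), but its only other probe set changed with the opposite sign. The simple-epithelium keratins KRT7, from 5.93 and 5.83 to 7.38 and 7.50 (1.56 ± 0.07), and KRT19, from 10.71 and 10.64 to 11.93 and 11.89 (1.23 ± 0.05), rose. The other 27 of 30 measured epithelial genes were not called, although 4 rather than 2 rose without control replicate 2. Of 20 mesenchymal genes 4 rose (20%, against 3.62% of all genes) and 1 fell (5%, near the 4.39% of all genes lower). The other 15 were not called, among them VIM (-0.15), CDH2 (-0.24) and ZEB1 (-0.15). In the whole list 12 lay above 0, and the median was 0.11. The transcription factor SNAI2 went from 4.97 and 5 to 6.34 and 6.28 (1.33 ± 0.07), and ZEB2, which represses E-cadherin, from 3.89 and 3.62 to 4.86 and 5.08 (1.21 ± 0.12), with control levels below the lower quartile. THY1 (1.02 ± 0.07) rose as well. S100A4, a calcium-binding protein of motile cells, fell by 0.61 ± 0.05. It was not called without control replicate 1 (-0.57) or after a further quantile normalisation (-0.56).

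Of 27 measured TGF-beta and SMAD genes 5 rose and 5 fell, 18.5% each way, against 3.62% and 4.39% of all genes. Thrombospondin 1, THBS1, a matrix protein that can activate latent TGF-beta, stood at 6.30 and 6.13 in control and at 8.77 and 8.73 in sgBAP1 + IR (2.53 ± 0.08). TGFBI rose by 1.17 ± 0.05 and the ligand BMP4 by 0.93 ± 0.13. The receptors TGFBR3 (-1 ± 0.07) and TGFBR1 (-0.65 ± 0.06) and the inhibitory SMAD6 (-0.77 ± 0.07, 1 of 2 other probe sets of opposite sign) fell. With averaged probe sets, 1 member of this list was called lower. Of 25 YAP targets 1 rose (4%, near the share of all genes) and 3 fell (12%). FOXF2 (-0.91 ± 0.06) and AMOTL2 (-0.88 ± 0.08) were among the falls, and 1 target was lower with averaged probe sets.

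Few chromatin genes were called outside the histones. Of 35 measured genes of the BAP1 complex and Polycomb complexes 1 and 2, none rose and 2 fell (5.71%, near the 4.39% of all genes). The falls were in the chromodomain proteins CBX7 (-0.87 ± 0.07) and CBX2 (-0.73 ± 0.08). Their other probe sets all had the opposite sign, and neither was called with averaged probe sets. None of the 22 measured HOX genes, classical Polycomb targets, was called, and 1 was lower without control replicate 1 or without sgBAP1 + IR replicate 2. Of 29 replication-dependent histone genes 6 rose (20.7%, against 3.62% of all genes) and 2 fell (6.90%). H2BC4 went from 5.18 and 5.34 to 6.66 and 6.84 (1.49 ± 0.08), H2BC5 from 8.94 and 8.78 to 10.14 and 10.06 (1.24 ± 0.07), whereas H4C3 fell from 13.63 and 13.60 to 12.49 and 12.54 (-1.10 ± 0.05). Histone genes of a family are near-identical, so their probe sets may share signal.

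Calls among ductal markers and markers of other cell types were compared with 3.62% of all genes higher and 4.39% lower. The shares higher were 7.41% of ductal, 5.26% of immune, 11.8% of endothelial and stromal, and 13.3% of neuroendocrine and islet markers. Lower were 3.70% of ductal and 5.88% of endothelial and stromal markers. The ductal and gastric regulator GATA6 rose from 6.48 and 6.39 to 8.20 and 8.23 (1.78 ± 0.08), 1 of 2 rises among 27 ductal, gastric and mucinous markers, and the mucin MUC16 fell by 0.95 ± 0.12. Of 15 acinar markers none was called, and 1 was higher without control replicate 2. Of 19 immune markers 1 rose, LAPTM5 (1.10 ± 0.08), while PTPRC lay below and CD3E and CD68 above the lower quartile on all arrays. Of 17 endothelial and stromal markers ESAM (1.13 ± 0.07) and KDR (0.96 ± 0.14) rose and COL1A1 fell, and of 15 neuroendocrine and islet markers 2 rose, among them SCG2 (0.92 ± 0.12). SERPINE2 (0.92 ± 0.06) was the single rise of 26 lysosome and senescence genes (3.85%, near the 3.62% of all genes). IGFBP3 (-0.73 ± 0.12) was the single fall (3.85%, near the 4.39% of all genes), and was not called without control replicate 1 (-0.53). Of 17 housekeeping genes, B2M alone was called.

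**Figure D3:**
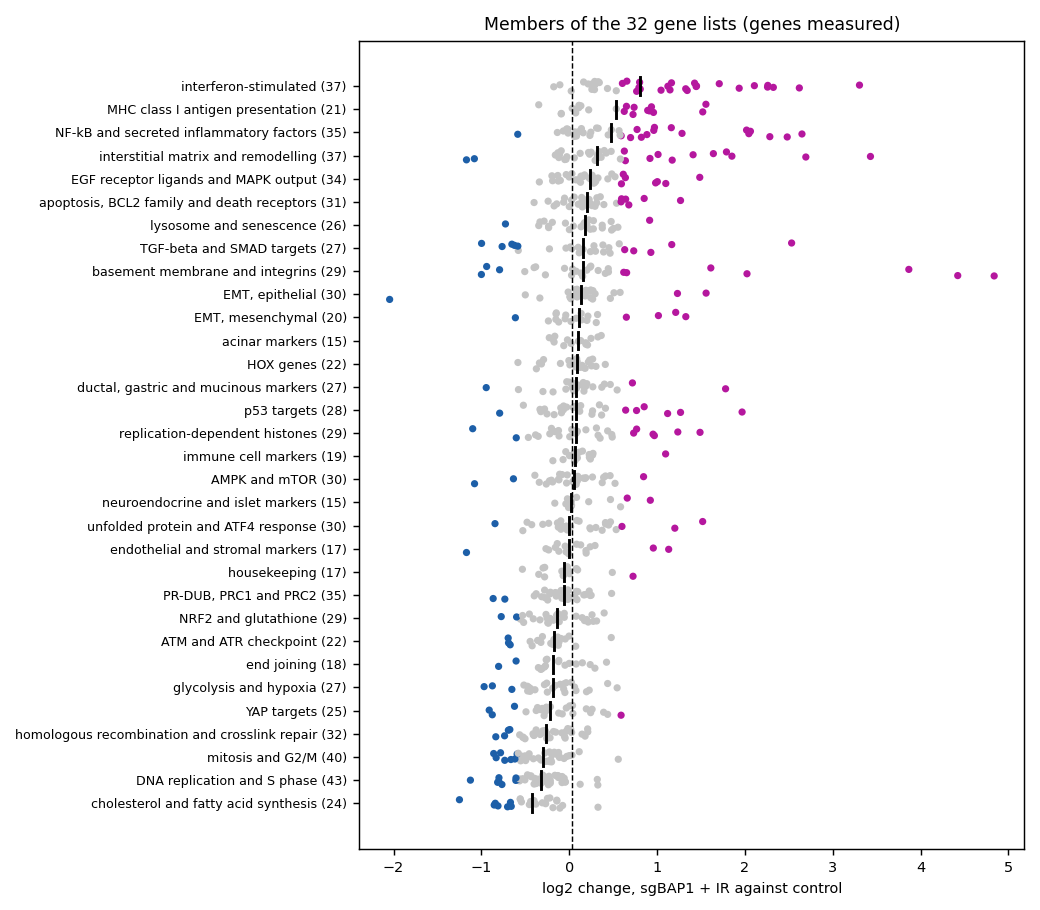
Log2 change between sgBAP1 + IR and control (horizontal axis) for every measured member of the 32 lists (rows, number measured in parentheses), with called rises in magenta, called falls in blue, members not called in grey, the list median as a black bar and the median of all genes as a dashed line. Medians run from -0.42 in cholesterol and fatty acid synthesis to 0.80 in interferon-stimulated genes.

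Among the 129 genes named in this comparison the highest adjusted p by limma was 0.027, for CXCL6. Of the 97 with other probe sets, 27 had none called in the same direction, and 18 had 1 or more of opposite sign, namely ARNT2, BCL2A1, CBX2, CBX7, CDC25A, CDH1, COL5A2, EDIL3, FEZ1, FILIP1L, NID1, PRKCB, SERPINE2, SMAD6, SORBS2, TGFB2, ULBP2 and XRCC1. Counts of 3 members or fewer in 1 direction moved by over 1.5 times, which was by 1 or 2 genes, when an array was left out, the arrays were normalised again or probe sets were averaged, in the AMPK and mTOR, NRF2, YAP, ductal, end joining, glycolysis, interstitial matrix, lysosome, mitosis, neuroendocrine and unfolded protein lists beside those already given.

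Against irradiated wild-type cells, sgBAP1 + IR showed what differed with the guide once all cells were irradiated. Here 180 genes were higher (0.993% of those tested) and 204 lower (1.13%), or 375 and 517 probe sets. LY96, of the inflammatory list, led the rises. It stood at 4.64 on both IR arrays and at 6.49 and 6.55 on the sgBAP1 + IR arrays (1.88 ± 0.05, 3.68-fold, adjusted p = 0.000105). CXCL8 went from 8.30 and 8.35 to 9.75 and 9.70 (1.4 ± 0.06), and ULBP2 from 5.38 and 5.33 to 6.86 and 6.95 (1.55 ± 0.08). The axonal navigator NAV3 rose by 1.4 ± 0.06 and C11orf96 by 1.45 ± 0.09. Of the lists, 7 of 37 interferon-stimulated genes rose, among them ISG20 (1.34 ± 0.09) and IFIT2 (1.22 ± 0.07). In the NF-kB list 7 of 35 rose and 1 fell, and in the EGF receptor and MAPK list 7 of 34 rose, HBEGF and DUSP5 each by 1.17. None of the 40 mitosis genes and 1 of the 43 replication genes, MCM6 (-0.99 ± 0.06), was called.

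The falls against IR included genes of adhesion. The protocadherin PCDH20 stood at 6.97 and 6.92 in IR and at 4.69 and 4.64 in sgBAP1 + IR (-2.28 ± 0.15, 4.86-fold lower, adjusted p = 0.00055). CDH1 fell from 6.41 and 6.25 to 5.13 and 5.08 (-1.23 ± 0.13), and EDIL3 from 8.30 and 8.27 to 7.04 and 6.99 (-1.27 ± 0.15). EDIL3 thus lay below IR and above control. GSTA4 (-1.46 ± 0.08), the Hedgehog receptor PTCH1 (-1.24 ± 0.09) and the placental-type alkaline phosphatase ALPG (-1.22 ± 0.06) fell as well. COL4A1 (0.56 ± 0.10), COL4A2 (0.45 ± 0.23), FN1 (0.20 ± 0.17) and EPHB1 (-0.05 ± 0.07) were not called between these groups. The methods' t-test called 474 probe sets here and none after adjustment, although 812 passed an unadjusted p under 0.05 with the fold.

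Against unirradiated cells with the guide, sgBAP1 + IR gave the effect of radiation in targeted cells. A total of 345 genes were higher (1.9%) and 233 lower (1.29%), or 804 and 721 probe sets. The matrix genes led. COL4A1 stood at 4.69 and 4.53 in sgBAP1 and at 8.88 and 8.92 in sgBAP1 + IR (4.30 ± 0.10, 19.6-fold, adjusted p = 6.18e-06), COL4A2 rose by 4.09 ± 0.23 and EPHB1 by 4.08 ± 0.07. CPVL (3.36 ± 0.13), FN1 (3.12 ± 0.17) and NEFL (3.10 ± 0.07) followed. Of the interferon-stimulated genes 18 of 37 rose, led by MX1 (2.77 ± 0.18) and IFIH1 (1.90 ± 0.11). Falls were smaller, and included the chemokine receptor CXCR4, from 7.66 and 7.55 to 6.08 and 6.29 (-1.42 ± 0.10), and the EGF family ligand NRG1, from 9.60 and 9.61 to 8.23 and 8.15 (-1.42 ± 0.06). TMEM255A (-1.56 ± 0.05), the ubiquitin ligase RNF157 (-1.42 ± 0.10), the Notch coactivator MAML3 (-1.37 ± 0.14) and XK (-1.34 ± 0.08) also fell. In the EGF receptor and MAPK list none rose and 5 of 34 fell, DUSP5 by 0.95 ± 0.05 and HBEGF by 0.60 ± 0.06. Of 25 YAP targets 4 fell, and of 24 lipid synthesis genes 4. The methods' t-test called 799 probe sets, and 2 after adjustment.

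Levels over the 4 groups differed between lists. The mean level of the interferon-stimulated list, relative to the control mean, was 0.26 and 0.28 in sgBAP1, 0.70 and 0.71 in IR, and 1.01 and 1.02 in sgBAP1 + IR. The NF-kB list was at 0.55 and 0.53 in sgBAP1, 0.36 and 0.33 in IR, and 0.69 and 0.72 in sgBAP1 + IR. Both lists were highest in the doubly treated cells. The basement membrane list was at 0.54 on both IR arrays and at 0.57 on both sgBAP1 + IR arrays. The EGF receptor and MAPK list was highest in sgBAP1 (0.48 and 0.50) and lower in sgBAP1 + IR (0.28 and 0.30). The replication list went to -0.34 and -0.33 in sgBAP1 + IR, below -0.16 and -0.18 in sgBAP1 and -0.15 on both IR arrays. The mitosis list was as low in IR (-0.36 and -0.34) as in sgBAP1 + IR (-0.32 and -0.34), and the housekeeping list stayed within 0.05 of control.

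**Figure D4:**
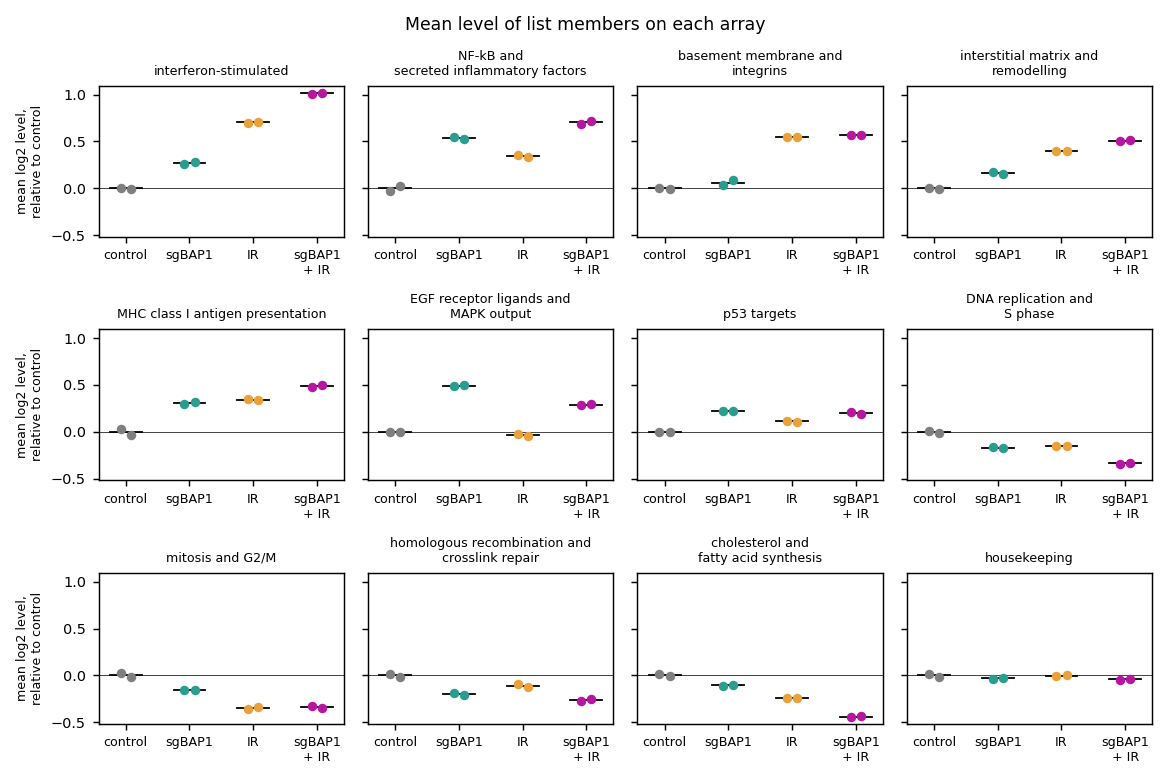
Mean log2 level of the measured members of 12 lists on each array, relative to the mean of the 2 control arrays (vertical axis), by group (horizontal axis), with 1 point per array and a bar at the group mean. In sgBAP1 + IR the interferon-stimulated list stands at 1.01 and 1.02 and the cholesterol and fatty acid list at -0.44 on both arrays.

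The interaction term asked whether sgBAP1 + IR differed from control by more or less than the changes of sgBAP1 and of IR added up on the log2 scale. It called 54 probe sets higher and 164 lower than the sum, or 28 genes (0.154%) and 56 genes (0.309%). These calls were not stable: with any 1 of the 8 arrays left out none was called, the lowest adjusted p by limma being 0.0568 to 0.114, although 615 to 795 probe sets still passed an unadjusted p under 0.05 with the fold. All 6 genes named below the sum were above control on every sgBAP1 and IR array, a pattern that choosing the most negative terms favours. EGR1 stood at 6.5 and 6.27 in control, 8.24 and 8.16 in sgBAP1, 7.12 and 6.88 in IR, and 7.32 and 7.46 in sgBAP1 + IR (-1.42 ± 0.15). H2BC4 was -1.37 ± 0.12, the collagenase MMP1 -1.22 ± 0.11, FILIP1L -1.25 ± 0.13, GADD45A -1.18 ± 0.07 and H2BC11 -1.06 ± 0.12 from the sum. Of 29 histone genes 5 were below the sum and none above.

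All 6 genes named above the sum were below control on both sgBAP1 arrays, barely so in SNAI2. Choosing the most positive terms favours this pattern. LFNG, which glycosylates Notch receptors, stood at 7.86 and 7.93 in control, 6.47 and 6.33 in sgBAP1, 8.08 and 8.26 in IR, and 7.72 and 7.79 in sgBAP1 + IR (1.08 ± 0.12). The arginine deiminase PADI2 stood at 8.62 and 8.51, 6.60 and 6.32, 9.94 and 10.00, and 8.81 and 8.79 in the same order (0.94 ± 0.13). SNAI2 had 4.97 and 5 in control, 4.92 and 4.90 in sgBAP1, 5.53 and 5.35 in IR and 6.34 and 6.28 in sgBAP1 + IR (0.94 ± 0.10), so that both doubly treated arrays were above all the others. BTNL9 (0.96 ± 0.13), the water channel AQP3 (0.95 ± 0.13) and CACNA1A (0.88 ± 0.12) were the other named genes. Of the 15 largest rises against control the term was called in 1, FILIP1L (-1.25 ± 0.13), and ranged up to 0.78 for PLAT, which was not called. Of the 15 largest falls it was called in CACNA1A and TET1 (0.67 ± 0.08), and CDH1 had the highest value (1.14 ± 0.18, adjusted p = 0.0538). It was 0.02 ± 0.14 for COL4A1 and -0.10 ± 0.25 for FN1, neither called.

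**Figure D5:**
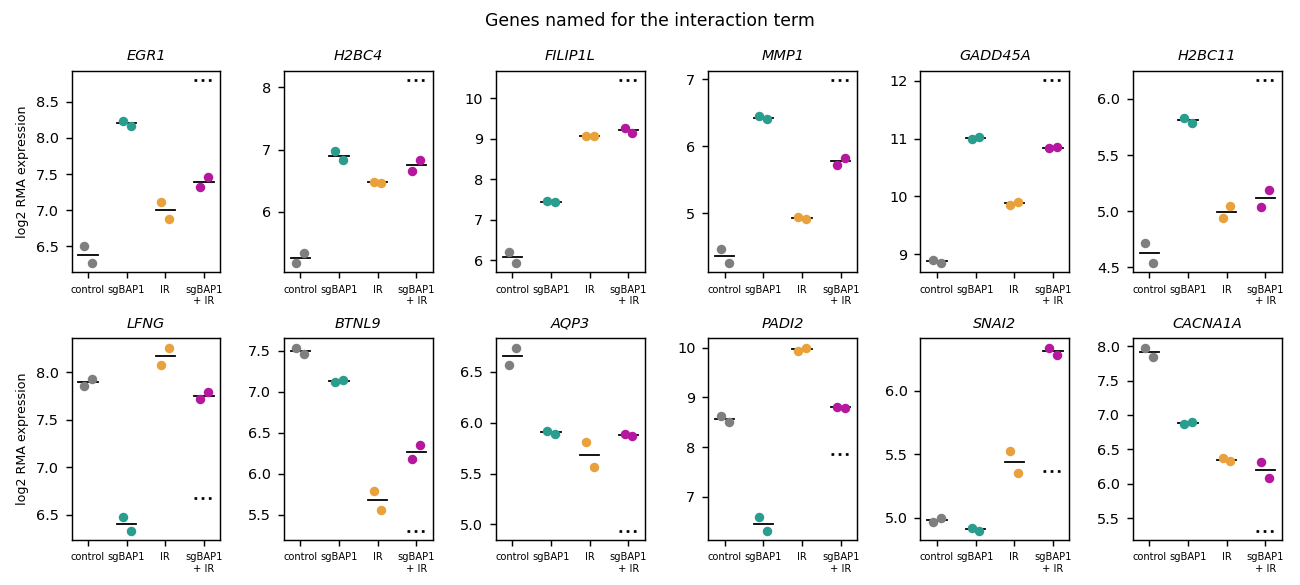
Log2 RMA expression on each array (1 point per array, a bar at the group mean, vertical axes not starting at 0) in the 4 groups for the 6 genes furthest below (top) and above (bottom) the sum of the single changes, which is drawn as a dotted line at sgBAP1 + IR. EGR1 lies 1.42 below its line and LFNG 1.08 above.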

How the data were processed

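Total RNA from 8 PANC1 samples, 2 per group, was hybridised by the authors to Affymetrix arrays. The authors deposited log2 values from RMA, an algorithm that subtracts background, equalises the distributions of the arrays by quantile normalisation and combines probes into probe sets, so a shift of all transcripts together would not be seen. There were no detection calls and no counts, and the number of arrays limits the precision. The array's genome build is not given in the sources used here. Of 49293 probe sets tested, 44988 carried 1 gene symbol, 1832 several and 2473 none. limma 3.58.1 (R 4.3.3; lmFit, eBayes) fitted 4 group means over all 8 arrays, leaving 4 residual degrees of freedom, and Benjamini-Hochberg adjustment ran over all probe sets of a comparison. The fit was tested on simulated data. The alternatives were scaling, a filter on dim probe sets, an intensity trend, the methods' threshold and t-test, fewer arrays, leaving out each array and the mean of probe sets per gene. Named genes were the 15 largest rises and falls, up to 4 called members per list plus 2 of the opposite direction, and the 6 largest of each direction in the other comparisons, at 5 log2 or more in a group for the largest changes. A gene that this rule names among the rises against IR is not reported here. The 32 lists (944 members, 871 measured) and all members were chosen with earlier results of these data known.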

Additional observations from a re-analysis of the deposited data

Results flagged for a closer look

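For 24 of the named genes the interaction term was called, meaning that the change with radiation differed between cells with and without the guide. None of these calls remained when any 1 of the 8 arrays was left out, and no cause was tested. Below the sum of the single changes lay EGR1 (-1.42), the histone genes H2BC4 (-1.37), H2BC11 (-1.06) and H2BC5 (-0.80), FILIP1L (-1.25), MMP1 (-1.22), GADD45A (-1.18), CXCL8 (-0.92), HBEGF (-0.92), the stress factor DDIT3 (-0.85), THBS1 (-0.79), DUSP5 (-0.76) and CDKN1A (-0.76). Above it lay LFNG (1.08), BTNL9 (0.96), AQP3 (0.95), SNAI2 (0.94), PADI2 (0.94), CACNA1A (0.88), COL5A2 (0.77), S100A4 (0.72), PFKFB4 (0.68), TET1 (0.67) and DDIT4 (0.59).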

How the results depend on the processing

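The number of called probe sets in sgBAP1 + IR against control (3546) was 3401 to 3973 when each of the 4 arrays was left out, and within 1.5 times of it under the other limma alternatives. The methods' t-test at an unadjusted p under 0.01 called 1971, 474 and 799 probe sets against control, IR and sgBAP1, in place of 3546, 892 and 1525, and 150, 0 and 2 after Benjamini-Hochberg adjustment, when 3221, 812 and 1368 had an unadjusted p under 0.05 with the fold. The interaction (218) gave 371 without dim probe sets, 525 with an intensity trend, 484 at an unadjusted limma p under 0.01, and 0 to 0 when each array was left out. Against control, 38.94% to 44.93% of calls were higher over the scalings, which moved the median of all genes from 0.035 to between 0.017 and 0.022. No named gene changed direction with a further quantile normalisation, the 4 arrays alone or 1 array left out. The mean of probe sets was not run for single genes. Of 129, 5 to 8 lost their call without 1 array, among them CXCL6, ME1, SPP1 (0.43 without sgBAP1 + IR replicate 2) and XRCC1. Of the 129, 17 were below 5 log2 in control, where a dim baseline limits the fold. No paired analysis was possible because no replicate number in the labels occurs in more than one group.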
